A study of Homo sapiens with 34 samples.

Results

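Most of the genes described here encode the nuclear-encoded subunits of the 5 mitochondrial respiratory complexes, from complex I (NADH dehydrogenase) to complex V (ATP synthase). They were taken from the count table by symbol: NDUFA, NDUFB, NDUFC, NDUFS or NDUFV with a number, SDHA to SDHD, UQCR, COX4 to COX8, and ATP5. The pattern matched 93 of 26336 symbols. Dropping 7 antisense, readthrough and pseudogene symbols left 86 genes: 36 of complex I, 4 of complex II, 9 of complex III, 19 of complex IV and 18 of complex V. Following their symbols, the complex V counts include ATP5S, which is no subunit, and ATP5SL, an assembly factor of complex I. The complex IV counts include COX7A2L, a factor of respiratory supercomplexes. Symbols are those of the table, so ATP synthase genes carry their older names (ATP5A1 for ATP5F1A). NDUFAB1 and CYC1 fall outside the pattern, and the subunits encoded by mitochondrial DNA were not analysed here.

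In the respiratory chain, complexes I and II pass electrons from NADH and succinate to ubiquinone, complex III passes them on to cytochrome c, and complex IV hands them to oxygen. Complexes I, III and IV pump protons across the inner membrane, and the return of protons through complex V drives ATP synthesis. Normal prostate secretory epithelium is known for high citrate output with little oxidation of that citrate, and prostate cancers for regaining its oxidation.

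The series holds 34 poly(A) RNA-seq libraries in 17 groups, made from 4 human prostate lines. RWPE is a non-tumorigenic epithelial line, LNCaP comes from a lymph node metastasis, and VCaP and MDAPCa2a are both labelled as bone metastatic. Cells grew on plastic or on a surface of amorphous calcium phosphate (ACP), which the series presents as a model of the bone environment. The media were control medium, medium with stripped serum (low in steroids) or, on ACP, androgen medium at a labelled 100 mM. The titles call the androgen DHT and the treatment labels testosterone, so it is called androgen here. RWPE was grown on plastic in control medium (2 libraries), on ACP in control medium (2) and on ACP with androgen medium (3). LNCaP and VCaP were grown on plastic and on ACP, each in control medium and in stripped serum, and on ACP with androgen, with 2 libraries a group except 1 for VCaP on plastic in stripped serum. MDAPCa2a was grown on plastic in control medium and in stripped serum, and on ACP in stripped serum and with androgen (2 libraries each). The labels give day 4 for the cultures, but continuous culture for plastic in control medium, where the protocol also describes 4 days. Each line has its own control medium, serum-free with growth factor and pituitary extract for RWPE and containing serum for the others, so line and medium cannot be told apart. The protocol's androgen medium for RWPE contains stripped serum, so androgen and serum cannot be told apart in that line. For MDAPCa2a only the plastic was given a protein coating. Nothing in the labels says that replicates came from separate cultures, and p-values then measure only the spread between these libraries, which may be technical.

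Total counts ran from 15440141 to 44779246 per library. Levels are given in CPM, counts scaled to a common library size, with TMM over all 34 libraries. The 4 basal epithelial markers summed to 3398 to 11102 CPM in RWPE with androgen medium, 10018 to 10830 CPM on plastic and 12742 to 15937 CPM on ACP in control medium, against at most 44.0 CPM in any library of the cancer lines. Within each line the libraries from plastic in control medium had the most reads. In RWPE, LNCaP and MDAPCa2a they also stood apart by low levels of liver and leukocyte transcripts. In RWPE, 7 liver genes summed to 18.2 to 19.9 CPM on plastic and to at most 3.07 CPM on ACP. In VCaP such sums did not set them apart. The liver genes summed to 80.3 to 171 CPM on plastic in control medium and 324 to 384 CPM on ACP in stripped serum. The leukocyte markers summed to 6.39 to 11.7 and 7.17 to 13.6 CPM in these groups. In every comparison of another condition with plastic in control medium, batch and condition cannot be told apart.

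Of the 86 genes, 67 were matched by symbol to the RefSeq promoter table (GRCh38.p14), which gave 80 windows of 300 bases, 250 before and 50 after an annotated start. The NRF1 motif GCATGCGC was found on either strand in 15 of these windows (18.8%), against 3.05% of all 35116 windows. The ETS motif CCGGAAG, the core bound by the NRF2 (GABP) regulator, was found in 26.2% against 10.3%, and the YY1 motif AAGATGGC in 16.2% against 2.89%. At least 1 of these motifs was found in 47.5% of the members' windows and in 14.9% of all windows. The promoters of 4 genes on which the comparisons turn are printed from 250 bases before to 30 after the start, with matches of these motifs in capitals. COX4I1 and COX8A separated VCaP from the other lines in opposite directions, NDUFS4 separated RWPE from the cancer lines, and NDUFB4 changed with serum in LNCaP.
COX4I1 (chr16:85799445-85799724, plus strand, ETS motif on the reverse strand): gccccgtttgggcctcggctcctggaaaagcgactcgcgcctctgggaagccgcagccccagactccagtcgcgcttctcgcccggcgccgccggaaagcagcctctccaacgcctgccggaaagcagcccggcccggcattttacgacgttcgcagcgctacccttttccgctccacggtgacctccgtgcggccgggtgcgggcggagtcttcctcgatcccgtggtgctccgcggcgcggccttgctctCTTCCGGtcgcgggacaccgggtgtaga
COX8A (chr11:63974370-63974649, plus strand, ETS motif on the reverse strand): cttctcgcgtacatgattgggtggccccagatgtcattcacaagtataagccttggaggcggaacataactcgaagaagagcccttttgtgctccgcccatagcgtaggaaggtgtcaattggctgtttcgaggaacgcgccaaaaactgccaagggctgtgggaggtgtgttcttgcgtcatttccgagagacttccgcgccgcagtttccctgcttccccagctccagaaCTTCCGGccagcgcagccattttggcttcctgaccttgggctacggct
NDUFS4 (chr5:53560389-53560668, plus strand, YY1 motif): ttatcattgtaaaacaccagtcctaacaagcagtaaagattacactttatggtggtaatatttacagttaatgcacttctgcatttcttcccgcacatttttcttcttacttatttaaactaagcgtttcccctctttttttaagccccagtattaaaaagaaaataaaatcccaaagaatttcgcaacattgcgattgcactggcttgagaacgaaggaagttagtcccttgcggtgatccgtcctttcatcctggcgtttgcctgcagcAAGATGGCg
NDUFB4 (chr3:120596086-120596365, plus strand, NRF1 motif on both strands): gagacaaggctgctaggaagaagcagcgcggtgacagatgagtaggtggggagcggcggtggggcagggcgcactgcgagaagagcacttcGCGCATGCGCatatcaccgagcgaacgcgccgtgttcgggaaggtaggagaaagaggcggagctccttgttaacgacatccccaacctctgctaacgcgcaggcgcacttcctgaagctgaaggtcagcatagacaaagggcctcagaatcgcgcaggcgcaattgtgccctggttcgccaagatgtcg
A match describes the letters of the window and is not a measured binding site.

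The first question was which members set a cell line apart over all the groups in which it was grown. Each line has its own control medium, so line and medium cannot be told apart here. Among the 81 members that passed the low-count filter in the fit of all lines, VCaP had 6 with every library below every library of the other lines, where 4.06% of all genes tested were below, and 2 with every library above (5.84% of all genes). RWPE had 3 above (9.92%) and 0 below (8.54%). LNCaP had 2 above (3.05%) and 1 below (2.75%). MDAPCa2a had 0 above (2.73%) and 2 below (2.63%). COX6B2, among the members above in RWPE, and COX7B2, among those above in LNCaP, passed the filter only through that line, so that their separation is no result. These counts are small and mostly near or under the background, so they are given for the single genes and say nothing about the members as a group.

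COX4I1, the ubiquitous subunit 4 of complex IV, was low in VCaP. Its lowest, median and highest levels were 94.6, 143 and 201 CPM over the 9 VCaP libraries and 361, 552 and 1303 CPM over the 25 libraries of the other lines. No VCaP library overlapped with another line. In edgeR's quasi-likelihood test the log2 difference from RWPE was -1.93 (SE 0.26, adjusted p = 5.8e-07) on plastic in control medium and -2.44 (SE 0.25, adjusted p = 6.6e-09) on ACP with androgen. The difference from LNCaP on ACP with androgen was -1.62 (SE 0.26, adjusted p = 9.2e-06). In the other cancer lines COX4I1 did not pass against RWPE on plastic (LNCaP -0.34, MDAPCa2a 0.07). On ACP with androgen it was called lower than in RWPE in these lines as well. With 1 library left out, the log2 differences there ran from -0.97 to -0.51 in LNCaP and from -1.22 to -0.69 in MDAPCa2a. The LNCaP call was lost without replicate 1 of the RWPE androgen group.

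COX8A, the small subunit 8 of complex IV, went the other way. Its lowest, median and highest levels were 401, 569 and 845 CPM in VCaP and 115, 175 and 283 CPM in the other lines. All VCaP libraries were above all others. By edgeR the log2 difference from RWPE was 2.20 (SE 0.20, adjusted p = 9.1e-10) on plastic and 1.94 (SE 0.17, adjusted p = 5.1e-10) on ACP with androgen. COX7C, another small subunit of complex IV, was on the low side with COX4I1, at 64.9, 95.7 and 114 CPM in VCaP and at 140 CPM or more in every other library. Its edgeR log2 difference from RWPE was -1.33 (SE 0.22, adjusted p = 1.4e-05) on plastic and -2.65 (SE 0.22, adjusted p = 2.0e-10) on ACP with androgen. On ACP with androgen COX7C was also called lower than in RWPE in LNCaP and MDAPCa2a. With 1 library left out, these differences ran from -1.20 to -0.89 and from -2.01 to -1.53.

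The other members below all lines in VCaP were accessory subunits of complex I: NDUFA13, NDUFA11, NDUFA7 and NDUFS4. NDUFA13, also known as GRIM-19, was at 52.6, 79.5 and 112 CPM in VCaP and 123, 185 and 510 CPM in the other lines. NDUFV3, an accessory subunit, was above all others, at 64.9, 73.4 and 83.7 CPM against 37.5, 45.5 and 56.1 CPM. By edgeR, NDUFA13 differed from RWPE by -0.93 (SE 0.29, adjusted p = 0.00807) on plastic and -2.05 (SE 0.29, adjusted p = 9.4e-07) on ACP with androgen. In the latter setting NDUFA13 was also called lower than in RWPE in LNCaP and MDAPCa2a. With 1 library left out, the smallest of these differences in size were -0.52 in LNCaP and -1.22 in MDAPCa2a. The call was kept in 2 of 5 such fits in LNCaP and in 5 of 5 in MDAPCa2a. The core subunit NDUFV1, which binds FMN and NADH, was higher in VCaP than in RWPE in both settings, by 1.60 (SE 0.20, adjusted p = 1.5e-07) and 0.98 (SE 0.17, adjusted p = 2.4e-05). It was also called higher than in RWPE in both settings in LNCaP.

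ATP5SL, an assembly factor of complex I despite its name, was lowest in LNCaP at 18, 23.1 and 26 CPM, and highest in RWPE at 60.5, 64.8 and 76.5 CPM.

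NDUFS4, an accessory subunit of complex I, was highest in RWPE and lowest in VCaP. The lowest, median and highest levels were 83.7, 153 and 328 CPM in RWPE and 36.1, 57 and 65.9 CPM in LNCaP. They were 35.7, 39.1 and 65.2 CPM in MDAPCa2a and 15.6, 21.7 and 31.3 CPM in VCaP. RWPE and VCaP were each clear of all other lines, while LNCaP and MDAPCa2a overlapped. By edgeR the log2 differences from RWPE on plastic were -1.26 (SE 0.23, adjusted p = 4.6e-05) in LNCaP, -2.34 (SE 0.24, adjusted p = 7.1e-09) in VCaP and -1.25 (SE 0.23, adjusted p = 5.6e-05) in MDAPCa2a. With androgen on ACP they were -2.13 (SE 0.22, adjusted p = 9.3e-09), -3.26 (SE 0.24, adjusted p = 1.7e-11) and -2.57 (SE 0.23, adjusted p = 6.8e-10). These 6 calls held whichever library was left out.

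MDAPCa2a had the lowest NDUFA10 and NDUFB4, accessory subunits of complex I. NDUFA10 was at 67.1, 72.6 and 81.2 CPM there and at 85.7 CPM or more in every other library. NDUFB4 was at 45.6, 54.2 and 58.9 CPM, just below the lowest other library at 59.4 CPM. By edgeR, NDUFA10 differed from RWPE by -1.02 (SE 0.13, adjusted p = 4.5e-07) on plastic and -1.29 (SE 0.13, adjusted p = 2.9e-09) on ACP with androgen, while NDUFB4 passed on ACP with androgen (-1.33, adjusted p = 8.7e-09) and not on plastic (-0.31, adjusted p = 0.0701). NDUFA10 was also called lower than in RWPE in LNCaP in both settings and in VCaP on ACP with androgen.

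**Figure D1:**
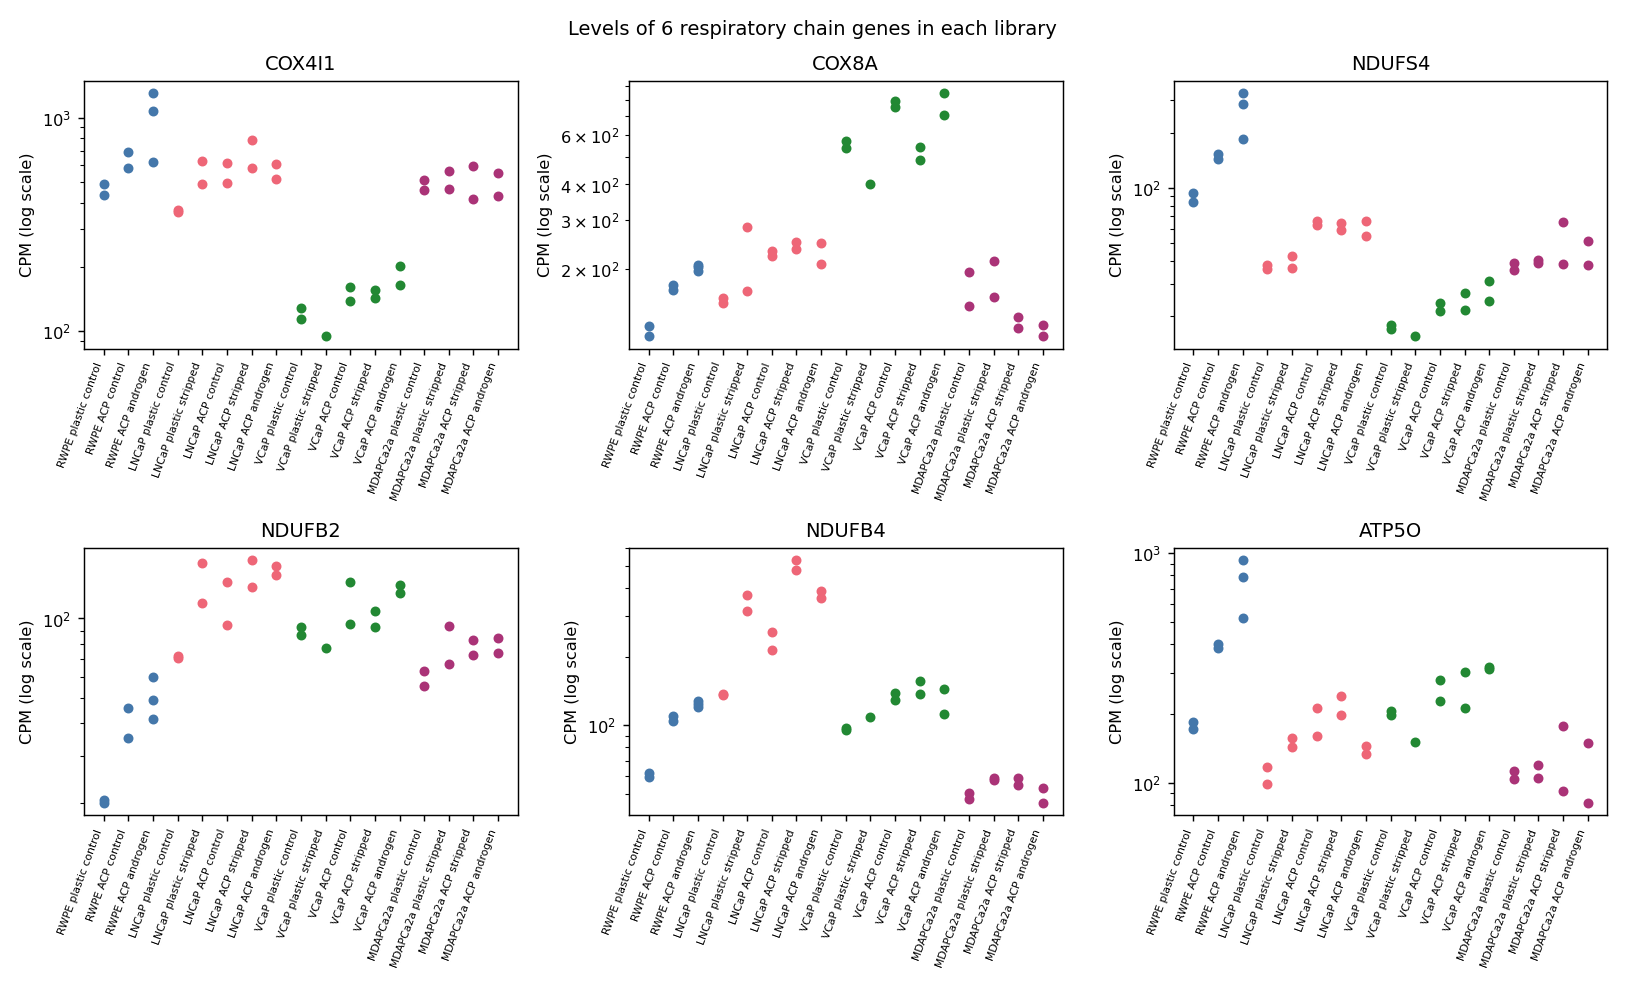
Each point is 1 library (CPM, log axis) in the 17 groups along the horizontal axis, coloured by cell line, for 6 members. COX4I1 is lowest and COX8A highest in the 9 VCaP libraries, NDUFS4 is highest in the 7 RWPE libraries, and NDUFB4 runs from 136 to 531 CPM within LNCaP.

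Several members are alternative forms of complex IV subunits known from muscle, lung, testis or hypoxic cells. COX6B2, the testis form of subunit 6B, was read in all 7 RWPE libraries, with 262 reads in all and 8 to 99 per library. Over all their libraries LNCaP, VCaP and MDAPCa2a had 5, 15 and 7 reads. COX7B2, the testis form of subunit 7B, was read in all 10 LNCaP libraries, with 263 reads in all and 14 to 36 per library. RWPE had 0 reads of it, VCaP 1 and MDAPCa2a 3. Its LNCaP levels of 0.528, 0.722 and 1.29 CPM (lowest, median, highest) compare with the 0.0165 CPM that 0 reads allow over the RWPE libraries (3 counts, counting error only). The 5 testis germ cell markers summed to at most 0.455 CPM in any library.

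COX8C, another testis form, had 0 reads in every library. COX4I2 and COX6A2 had at most 3 reads over the libraries of any line, and COX7A1, the heart and muscle form, had 12 reads in VCaP and at most 1 in each other line. ATP5L2, a copy of ATP5L, had 3 to 9 reads per line. Copies that share sequence are uncertain in these counts, here ATP5L2, UQCRHL with UQCRH, and the c-ring genes ATP5G1, ATP5G2 and ATP5G3.

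NDUFA4L2, a hypoxia-inducible relative of the complex IV subunit NDUFA4, differed between replicates in LNCaP. It was at 36.6 and 68.3 CPM on plastic in control medium and 6.13 and 4.28 CPM on plastic in stripped serum. On ACP it was at 5.54 and 44.1 CPM in control medium, 2.36 and 7.15 CPM in stripped serum and 2.21 and 48.7 CPM with androgen. Replicate 2 was the higher library in each of these ACP groups, and the groups overlapped. By edgeR it was higher in LNCaP than in RWPE by 4.48 (SE 0.92, adjusted p = 1.9e-04) on plastic and 2.97 (SE 0.76, adjusted p = 0.00139) on ACP with androgen, and the latter became -0.55 without replicate 2 of the LNCaP androgen group.

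**Figure D2:**
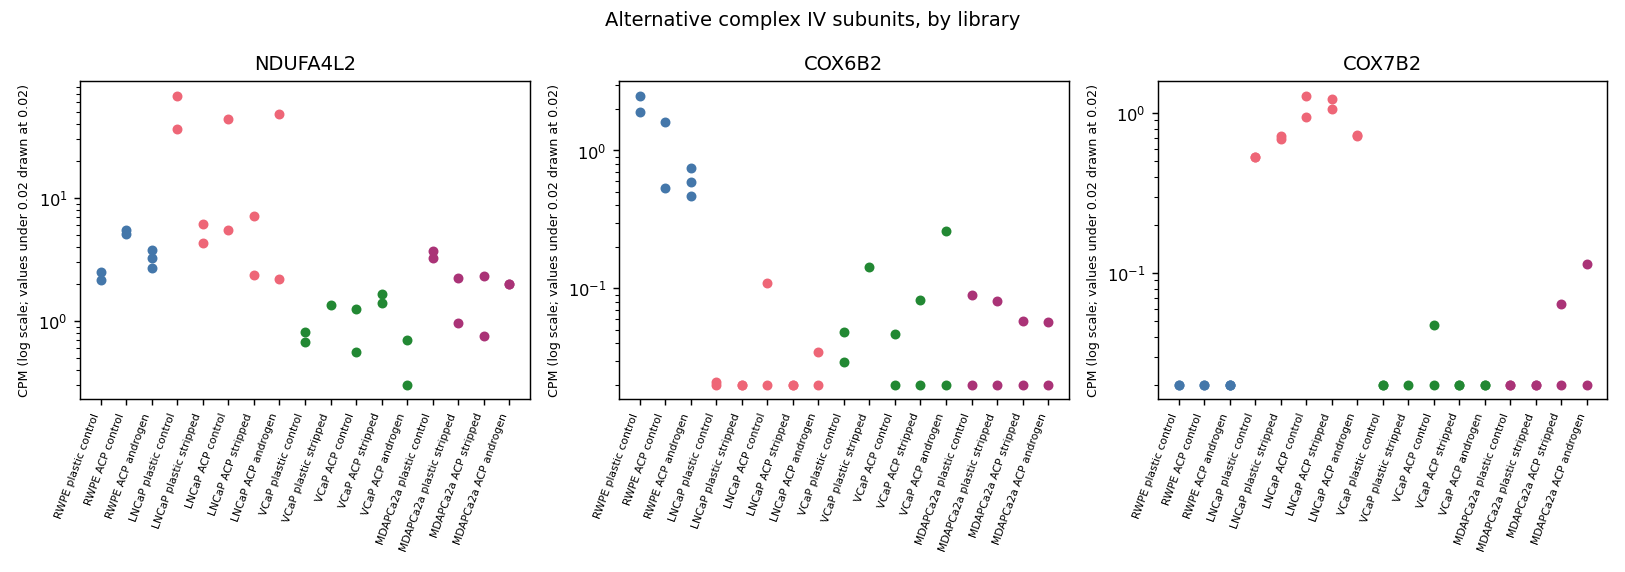
Each point is 1 library (CPM, log axis, values under 0.02 drawn at 0.02) for 3 alternative complex IV subunits in the 17 groups, coloured by cell line. NDUFA4L2 differs between LNCaP replicates, COX6B2 is highest in the 7 RWPE libraries, and COX7B2 in the 10 LNCaP libraries.

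The cancer lines were then compared with RWPE in the settings that all 4 lines share, on plastic in control medium and on ACP with androgen. On plastic more members were higher than lower, and on ACP with androgen more were lower than higher, in each cancer line. On plastic, 28 members were higher and 12 lower in LNCaP, where 57.4% of all genes were called. VCaP had 29 higher and 17 lower (62.4%), and MDAPCa2a 28 higher and 8 lower (56.7%), or 22 and 12 with median-ratio size factors. On ACP with androgen, 17 were higher and 38 lower in LNCaP (66.9%), 12 and 44 in VCaP (67.4%), and 4 and 60 in MDAPCa2a (64.0%). The called share of the 81 members was 49.4%, 56.8% and 44.4% on plastic, under the background each time. On ACP with androgen it was 67.9% in LNCaP and 69.1% in VCaP, near the background, and 79% in MDAPCa2a. In both settings the counts include COX6B2, lower in LNCaP and MDAPCa2a, and COX7B2, higher in LNCaP. These genes passed the filter only through 1 line, as stated above.

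The median log2 difference of the members was 0.27 on plastic and -0.38 on ACP with androgen in LNCaP, 0.18 and -0.60 in VCaP, and 0.31 and -0.999 in MDAPCa2a. Over all genes these medians lay between -0.09 and 0.04. RWPE is the reference of all 6 comparisons, and its own levels of these genes differed between the settings, as given below. Member transcripts are short, with a median of 825.5 bases against 2007 for all genes. With offsets for GC content and length, the splits on ACP with androgen were 30 higher and 32 lower in LNCaP, 24 and 34 in VCaP, and 16 and 46 in MDAPCa2a. Whether the difference from RWPE changed between the settings was not tested.

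By complex, on ACP with androgen the lower calls in MDAPCa2a were 25 of 36 in complex I, 3 of 4 in complex II, 5 of 9 in complex III, 13 of 15 in complex IV and 14 of 17 in complex V. Among the 4 higher members there were NDUFB2 (0.65), SDHA (0.44) and UQCR10 (0.50). In VCaP 22 of 36 members of complex I, 8 of 15 of complex IV and 8 of 17 of complex V were lower. In LNCaP these counts were 13, 9 and 10. Of all 17323 genes tested in this setting, 5922 were lower in MDAPCa2a, 5991 in VCaP and 6023 in LNCaP. NDUFB5, an accessory subunit of complex I, was among the lowest in all 3 lines, at 963, 757 and 382 CPM in RWPE and 64.7 to 120 CPM in the cancer lines. By edgeR its log2 differences were -2.68 (SE 0.36, adjusted p = 4.2e-07) in LNCaP, -2.75 (SE 0.36, adjusted p = 3.0e-07) in VCaP and -2.93 (SE 0.36, adjusted p = 1.5e-07) in MDAPCa2a.

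**Figure D3:**
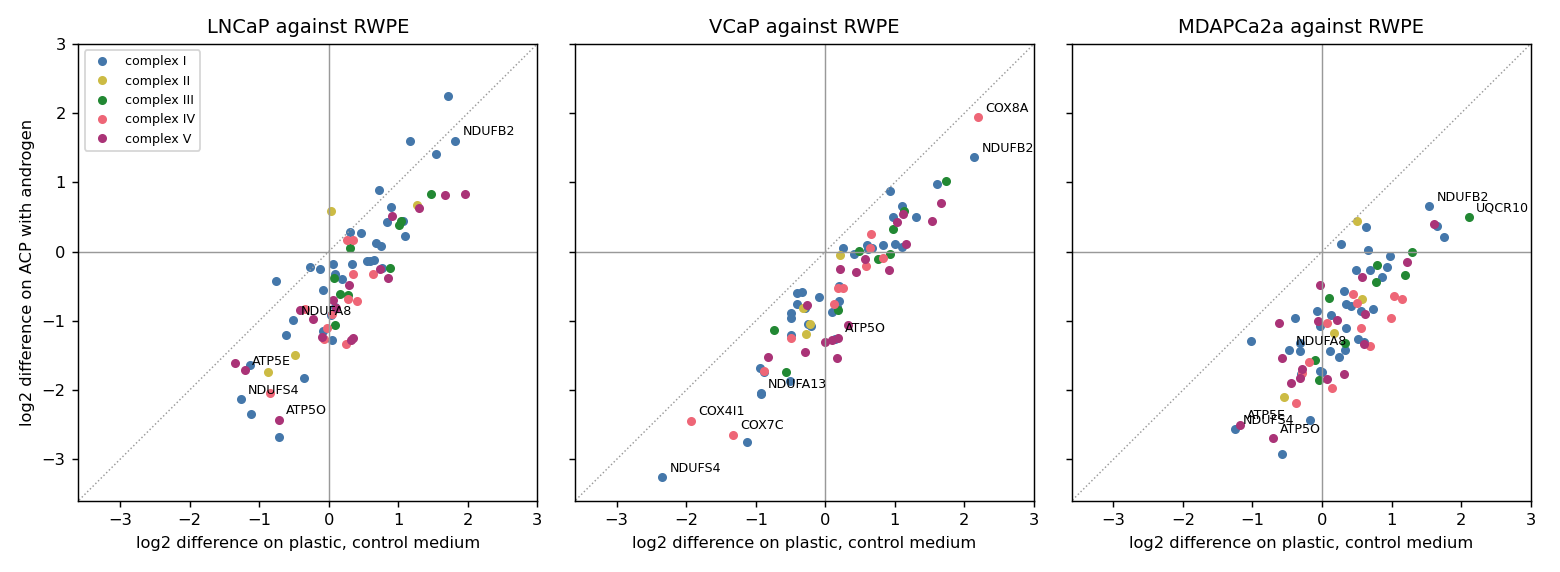
Each point is a member, with its log2 difference from RWPE on plastic in control medium (horizontal) and on ACP with androgen (vertical), in 1 panel per cancer line, coloured by complex; the dotted line marks equal values, and NDUFA4L2, COX6B2 and COX7B2 are not drawn. Most members lie below the dotted line, and the members' medians on the vertical axis are -0.38 in LNCaP, -0.60 in VCaP and -0.999 in MDAPCa2a.

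Members called the same way in both settings were fewer. In LNCaP 16 were higher and 12 lower in both, which is 19.8% and 14.8% of the members beside 23.8% and 22.8% of all genes. In VCaP 12 were higher and 16 lower (14.8% and 19.8%, beside 25.3% and 24.7%), and in MDAPCa2a 4 and 8 (4.94% and 9.88%, beside 22.2% and 23.1%). All of these shares were under the background. The counts include COX7B2 (higher in LNCaP) and COX6B2 (lower in LNCaP and MDAPCa2a), which passed the filter only through 1 line. Higher than in RWPE on plastic and lower on ACP with androgen were 11 members in MDAPCa2a (13.6%, beside 0.623% of all genes), 0 in LNCaP (0.531% of all genes) and 0 in VCaP (0.444%). A set of 5 members, picked out after their values were seen, was called the same way in all 6 comparisons: NDUFS4, NDUFA8 and ATP5E lower, and NDUFB2 and UQCR10 higher in the cancer lines. These are 3.7% of the members lower and 2.47% higher, beside 10.9% and 10.7% of all genes, so under the background.

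NDUFB2, an accessory subunit of complex I, was at 20 and 20.6 CPM in RWPE on plastic and at 55.3 to 92.6 CPM in the cancer lines there. On ACP with androgen it was at 60.2, 48.9 and 41.5 CPM in RWPE and 73.7 to 158 CPM in the cancer lines. In both settings every cancer library was above every RWPE library. By edgeR the log2 differences on plastic were 1.82 (SE 0.23, adjusted p = 2.2e-07) in LNCaP, 2.14 (SE 0.23, adjusted p = 1.5e-08) in VCaP and 1.54 (SE 0.23, adjusted p = 2.4e-06) in MDAPCa2a, and the lowest on ACP with androgen was 0.65 (SE 0.20, adjusted p = 0.00611) in MDAPCa2a.

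UQCR10, a small subunit of complex III, was at 16.8 and 20.4 CPM in RWPE on plastic and 50.6 to 87.7 CPM in the cancer lines. By edgeR its log2 differences there were 1.47 (SE 0.23, adjusted p = 4.8e-06) in LNCaP, 1.74 (SE 0.23, adjusted p = 3.7e-07) in VCaP and 2.11 (SE 0.23, adjusted p = 2.3e-08) in MDAPCa2a. The values on ACP with androgen were 0.83, 1.02 and 0.50 (SE 0.20, adjusted p = 0.0313). Without replicate 1 of the MDAPCa2a androgen group, UQCR10 (0.28) and NDUFB2 (0.55) were not called in that line on ACP.

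ATP5E, the epsilon subunit of ATP synthase, was at 164 and 202 CPM in RWPE on plastic and 76.7 to 104 CPM in the cancer lines. With androgen on ACP it was at 524, 511 and 482 CPM in RWPE and 69.9 to 186 CPM in the cancer lines. The cancer lines were below RWPE without overlap in both settings. By edgeR the log2 differences on ACP with androgen were -1.71 (SE 0.24, adjusted p = 7.7e-07) in LNCaP, -1.52 (SE 0.24, adjusted p = 4.0e-06) in VCaP and -2.50 (SE 0.25, adjusted p = 3.7e-09) in MDAPCa2a. On plastic the VCaP difference of -0.82 (SE 0.25, adjusted p = 0.00557) became -0.66 and was not called without replicate 2 of RWPE. NDUFA8, an accessory subunit of complex I, was lower by edgeR on ACP with androgen in LNCaP (-0.99, adjusted p = 5.2e-05), VCaP (-0.97, adjusted p = 7.0e-05) and MDAPCa2a (-1.43, adjusted p = 4.8e-07). Its plastic differences of -0.51, -0.49 and -0.48 kept their calls in 1 of 12 fits that left out any 1 of the plastic libraries of the line or of RWPE, with values from -0.56 to -0.43 in the others.

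Complex II, the enzyme shared with the tricarboxylic acid cycle, did not move in 1 direction in LNCaP. SDHB, its iron-sulphur protein, was at 49.5, 57.3 and 73.4 CPM (lowest, median, highest) in LNCaP and 98.6, 141 and 222 CPM in RWPE, without overlap. By edgeR its log2 difference from RWPE in LNCaP was -0.88 (SE 0.19, adjusted p = 2.8e-04) on plastic and -1.74 (SE 0.18, adjusted p = 7.1e-09) on ACP with androgen. In the latter setting SDHB was also called lower than in RWPE in VCaP and MDAPCa2a. With 1 library left out, these differences ran from -0.93 to -0.63 and from -1.29 to -0.98. SDHC, a membrane anchor of the same complex, was higher in LNCaP than in RWPE, by 1.27 (SE 0.22, adjusted p = 1.8e-05) on plastic and 0.67 (SE 0.19, adjusted p = 0.00368) on ACP with androgen. SDHC was on ACP with androgen lower than in RWPE in VCaP, by -1.20 (SE 0.20, adjusted p = 1.3e-05), and in MDAPCa2a, by -0.69 (SE 0.20, adjusted p = 0.00378). The MDAPCa2a value was 0.04 with offsets for GC content and length, and was not called without replicate 2 of its androgen group (-0.43) or replicate 1 of RWPE (-0.46). SDHA, the flavoprotein that holds the succinate site, was higher than in RWPE on ACP with androgen in LNCaP (0.59, adjusted p = 0.00454) and MDAPCa2a (0.44, adjusted p = 0.0301). It was not called in MDAPCa2a without the same libraries (0.30 and 0.40), and did not pass in VCaP (-0.05, adjusted p = 0.815).

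In complex V, ATP5A1, the alpha subunit of the ATP synthase head, was at 241 to 644 CPM in RWPE, 775 to 1204 in LNCaP, 553 to 876 in VCaP and 673 to 972 in MDAPCa2a. By edgeR its log2 differences from RWPE on plastic were 1.67 (SE 0.21, adjusted p = 2.5e-07), 1.53 (SE 0.21, adjusted p = 7.5e-07) and 1.60 (SE 0.21, adjusted p = 4.5e-07). The differences on ACP with androgen were 0.82 (SE 0.18, adjusted p = 4.0e-04), 0.44 (SE 0.19, adjusted p = 0.0405) and 0.39 (SE 0.19, adjusted p = 0.0673), the last of which did not pass. The VCaP value was not called without replicate 3 of RWPE (0.35) or replicate 2 of VCaP (0.30) with androgen. ATP5O, which joins the ATP synthase head to its stalk, went the other way on ACP with androgen. It was at 934, 789 and 521 CPM in RWPE and 81.5 to 319 CPM in the cancer lines, below RWPE without overlap. Its edgeR log2 differences were -2.43 (SE 0.28, adjusted p = 3.7e-08) in LNCaP, -1.24 (SE 0.26, adjusted p = 1.9e-04) in VCaP and -2.70 (SE 0.28, adjusted p = 9.5e-09) in MDAPCa2a.

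Among the cancer lines on ACP with androgen, MDAPCa2a had the lower levels. Against LNCaP 3 members were higher and 41 lower (45.3% of all genes called), and against VCaP 6 and 34 (51.4%), or 12 and 30 with offsets for GC content and length. The count of 40 against VCaP was 24 without replicate 2 of MDAPCa2a and 26 without replicate 2 of VCaP. VCaP against LNCaP gave 11 higher and 22 lower (56.0%). The shares of members called were 54.3%, 49.4% and 40.7%, above the background only for MDAPCa2a against LNCaP, and for that comparison with no test of the difference.

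As a share of all counts, the 86 genes took from 0.82 to 2.08% of a library. In RWPE the share was 0.848% ± 0.0406 (SD, n = 2) on plastic, 1.33% ± 0.0163 (n = 2) on ACP in control medium and 1.84% ± 0.284 (n = 3) on ACP with androgen medium, with no overlap between the groups. In LNCaP it was 1.14% ± 0.0084 (SD, n = 2 in each group) on plastic in control medium and 1.52% ± 0.125 on plastic in stripped serum. On ACP it was 1.65% ± 0.196 in control medium, 1.84% ± 0.144 in stripped serum and 1.61% ± 0.0551 with androgen. The LNCaP libraries from plastic in control medium were below all other LNCaP libraries, and those with androgen were below those in stripped serum on ACP. In VCaP the lowest group was the single library on plastic in stripped serum, at 0.848%, and the highest was the androgen group, at 1.41% ± 0.0993 (n = 2). In MDAPCa2a the means of the 4 groups lay between 1.03% ± 0.0555 and 1.2% ± 0.087 (n = 2 each). Single libraries ran wider there, from 0.945% on ACP with androgen to 1.35% on ACP in stripped serum. In such shares, fewer transcripts of these genes and more of others cannot be told apart.

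**Figure D4:**
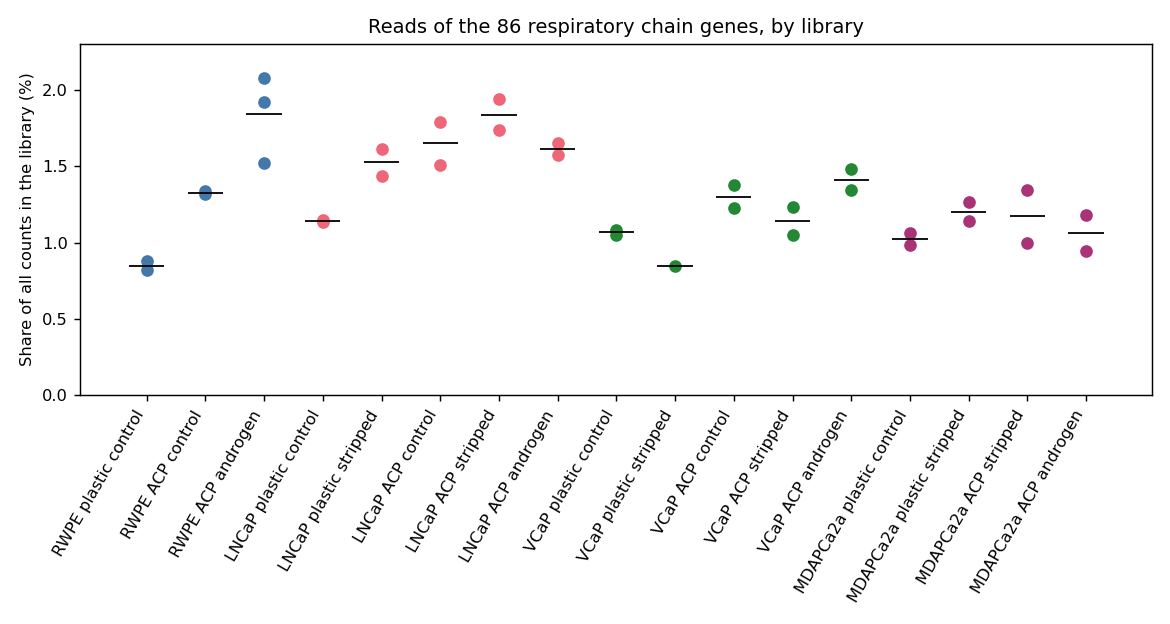
Share of all counts (%) taken by the 86 genes in each of the 34 libraries, by group, with a line at the group mean. RWPE on ACP with androgen and LNCaP on ACP in stripped serum have the highest means, both 1.84%, and RWPE on plastic and the single VCaP library on plastic in stripped serum the lowest, both 0.848%.

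On ACP, androgen medium was compared with control medium in RWPE. Of 80 members tested, 37 rose and 0 fell, where 19.1% of all genes were called and 11.0% rose. Members rose in every complex: 12 of 36 in complex I, 2 of 4 in complex II, 4 of 9 in complex III, 8 of 14 in complex IV and 11 of 17 in complex V. The median log2 change of the members was 0.67, against -0.02 over all genes. The 5 largest rises were in NDUFB5, ATP5F1, NDUFA9, ATP5C1 and COX7A2L.

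NDUFB5 was at 235 and 260 CPM in control medium and 963, 757 and 382 CPM with androgen medium, an edgeR log2 change of 1.52 (SE 0.33, adjusted p = 0.0195). ATP5F1, the b subunit of the ATP synthase stalk, was at 315 and 311 CPM and 978, 821 and 448 CPM, an edgeR change of 1.28 (SE 0.29, adjusted p = 0.0209). ATP5C1, the gamma subunit of the rotating shaft, was at 277 and 281 CPM and 756, 654 and 399 CPM, an edgeR change of 1.14 (SE 0.26, adjusted p = 0.0205). In these genes the groups did not overlap, and replicate 3 of the androgen group was the library nearest to control. By edgeR, NDUFA9, an accessory subunit of complex I, rose by 1.15 (SE 0.28, adjusted p = 0.0234), and COX7A2L, a factor of respiratory supercomplexes, by 1.13 (SE 0.31, adjusted p = 0.0335). Several core members did not pass: NDUFS1 (0.37, adjusted p = 0.15), NDUFV1 (-0.20, adjusted p = 0.414), SDHA (-0.40, adjusted p = 0.149), UQCRFS1 (0.27, adjusted p = 0.299) and ATP5B (0.28, adjusted p = 0.258), all by edgeR.

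With offsets for GC content and length 0 members were called by edgeR and the median was 0.23. Without replicate 3 of the androgen group 64 members were called, without replicate 1 or 2 of it 9 or 13, and without either control library 0. The 4 basal markers summed to 3398 to 11102 CPM with androgen medium and 12742 to 15937 CPM in control medium, and their part in the result was not tested.

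In LNCaP and VCaP on ACP, androgen was compared with stripped serum alone. In LNCaP 0 members rose and 3 fell, where 7.73% of all genes were called and 3.96% fell, or 3 and 4 with offsets for GC content and length. By edgeR NDUFB1 of complex I changed by -0.76 (SE 0.20, adjusted p = 0.0383), ATP5O by -0.67 (SE 0.17, adjusted p = 0.0373) and UQCRH, the hinge protein of complex III, by -0.56 (SE 0.15, adjusted p = 0.0471). In VCaP 8 members rose and 0 fell, where 17.5% of all genes were called and 8.67% rose: NDUFA6, NDUFA1 and NDUFB10 of complex I, SDHB of complex II, UQCRQ and UQCRFS1 of complex III, COX6A1 of complex IV and ATP5G3 of complex V. The share of members called was 3.75% in LNCaP and 10.1% in VCaP, under the background of both directions in each line. Beside the genes called in the same direction these shares were near the background, at 3.96% in LNCaP and 8.67% in VCaP. The members' median was -0.21 in LNCaP and 0.33 in VCaP, against -0.01 and -0.03 over all genes.

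NDUFA6, an accessory subunit of complex I, was at 41.4 and 52.4 CPM in VCaP in stripped serum and 87.1 and 104 CPM with androgen, an edgeR change of 1.03 (SE 0.21, adjusted p = 0.0114). UQCRFS1, the Rieske iron-sulphur protein of complex III, was at 91.7 and 99 CPM and 146 and 204 CPM, an edgeR change of 0.88 (SE 0.21, adjusted p = 0.0205). SDHB was at 59.5 and 70.2 CPM and 95.9 and 124 CPM, an edgeR change of 0.77 (SE 0.21, adjusted p = 0.0318). In all of these the VCaP androgen libraries were above the stripped serum libraries. In LNCaP, ATP5O was at 239 and 198 CPM in stripped serum and 133 and 145 CPM with androgen, and NDUFB1 at 86.8 and 91.3 CPM and 51.4 and 54.6 CPM, again without overlap.

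Without any of the 4 libraries 0 members were called in LNCaP, and in VCaP 4 without replicate 1 of the androgen group, 0 without replicate 2 of it or replicate 1 of the stripped serum group, and 15 without replicate 2 of the latter. In VCaP the 4 leukocyte markers summed to 82.8 to 158 CPM with androgen and 7.17 to 13.6 CPM without, mostly LYZ (81.2 and 154 CPM with androgen) and with CD3E at 0 reads, the 7 liver genes to 49.8 to 113 and 324 to 384 CPM, and the 4 fibroblast genes to 7.18 to 8.1 and 40.3 to 161 CPM, and their part in the result was not tested.

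The androgen effect itself was compared between VCaP and LNCaP in the fit of all lines. It differed in 5 members, where 10.9% of all genes were called, and in these it was the more positive in VCaP. UQCRQ, a small subunit of complex III, went from 77.8 and 121 to 196 and 199 CPM in VCaP and from 385 and 320 to 277 and 289 CPM in LNCaP. The difference between these effects was 1.31 (SE 0.37, adjusted p = 0.0231) by edgeR. NDUFA1, an accessory subunit of complex I, went from 25.6 and 27.4 to 46.6 and 48.7 CPM in VCaP and from 105 and 90.2 to 72.8 and 74.3 CPM in LNCaP, a difference of 1.25 (SE 0.32, adjusted p = 0.0135) by edgeR. In both genes the androgen libraries were the higher in VCaP and the lower in LNCaP, without overlap.

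The others were COX6C of complex IV, with 1.03 (SE 0.30, adjusted p = 0.0246), UQCRFS1, with 0.91 (SE 0.24, adjusted p = 0.0174), and SDHB, with 0.80 (SE 0.26, adjusted p = 0.0495), all by edgeR. In LNCaP alone none of the 5 was called (UQCRQ -0.33, NDUFA1 -0.42, COX6C -0.42, UQCRFS1 -0.04, SDHB -0.06), and 18 members had an unadjusted p under 0.05 by edgeR. The count was 0 without replicate 1 of either stripped serum group, 1 without replicate 2 of VCaP with androgen, 2 without replicate 2 of LNCaP with androgen, 3 without replicate 1 of it or replicate 2 of LNCaP in stripped serum, and 10 without replicate 2 of VCaP in stripped serum. With offsets for GC content and length 9 members were more positive and 2 more negative in VCaP.

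In MDAPCa2a on ACP, androgen against stripped serum gave 0 called members by edgeR, where 0.0% of all genes were called, with 0 at an unadjusted p under 0.05 and 0 by DESeq2. Of 79 members 71 were below 0, with a median of -0.21 and a range from -0.52 to 0.34. COX4I1 was at 594 and 416 CPM in stripped serum and 552 and 429 CPM with androgen.

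Stripped serum was next set against control medium, on ACP and in the lines LNCaP and VCaP. In LNCaP NDUFB4 rose and was the only member called by edgeR, where 5.37% of all genes were called. The count was 2 by DESeq2, 4 with no count filter and 3 with offsets for GC content and length. It was at 256 and 214 CPM in control medium and 531 and 478 CPM in stripped serum, an edgeR log2 change of 1.08 (SE 0.14, adjusted p = 0.0018). On plastic it was at 136 and 137 CPM and 372 and 317 CPM, an edgeR change of 1.39 (SE 0.14, adjusted p = 3.4e-04). The groups did not overlap on either surface, and both calls held whichever library was left out. With androgen on ACP NDUFB4 was at 387 and 360 CPM, below both stripped serum libraries, an edgeR change of -0.45 (SE 0.14, adjusted p = 0.0789) that did not pass.

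In VCaP on ACP 0 members were called for stripped serum by edgeR, where 0.82% of all genes were called, with 9 at an unadjusted p under 0.05 and 2 by DESeq2. NDUFB4 was at 129 and 138 CPM in control medium and 137 and 157 CPM in stripped serum there. Whether its change differed between the lines was not tested.

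The surface was compared in stripped serum, which leaves out the plastic control libraries. In LNCaP 12 members were higher on ACP and 0 lower, where 6.12% of all genes were called and 4.32% were higher. They came from each complex: NDUFB3, NDUFV2, NDUFS4 and NDUFB4 of complex I, SDHC, UQCRQ, COX6C, COX7B, COX7A2 and NDUFA4 of complex IV, and ATP5F1 and ATP5S. COX6C was at 102 and 69.9 CPM on plastic and 156 and 162 CPM on ACP, an edgeR log2 difference of 0.92 (SE 0.17, adjusted p = 0.0142). UQCRQ was at 236 and 150 CPM and 385 and 320 CPM, an edgeR difference of 0.91 (SE 0.19, adjusted p = 0.0203). In both the ACP libraries were above the plastic libraries. The members' median was 0.35, or 0.16 with offsets for GC content and length, which left 5 calls. The count was 25 by DESeq2 and 26 with no count filter. Without either ACP library 0 were called, and without replicate 1 on plastic 3.

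In VCaP the median surface difference was 0.60 and all 79 members were above 0, but 0 were called by edgeR, where 0.0% of all genes were called, with 39 at an unadjusted p under 0.05 and 0 by DESeq2. The plastic group is a single library, assumed to vary like the other VCaP groups, and COX4I1 was at 94.6 CPM in it and at 155 and 143 CPM on ACP. In MDAPCa2a the median was 0.06, and 0 members were called by edgeR (0.00734% of all genes), with 10 at an unadjusted p under 0.05 and 1 by DESeq2. Whether the surface effect differed between lines was not tested.

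**Figure D5:**
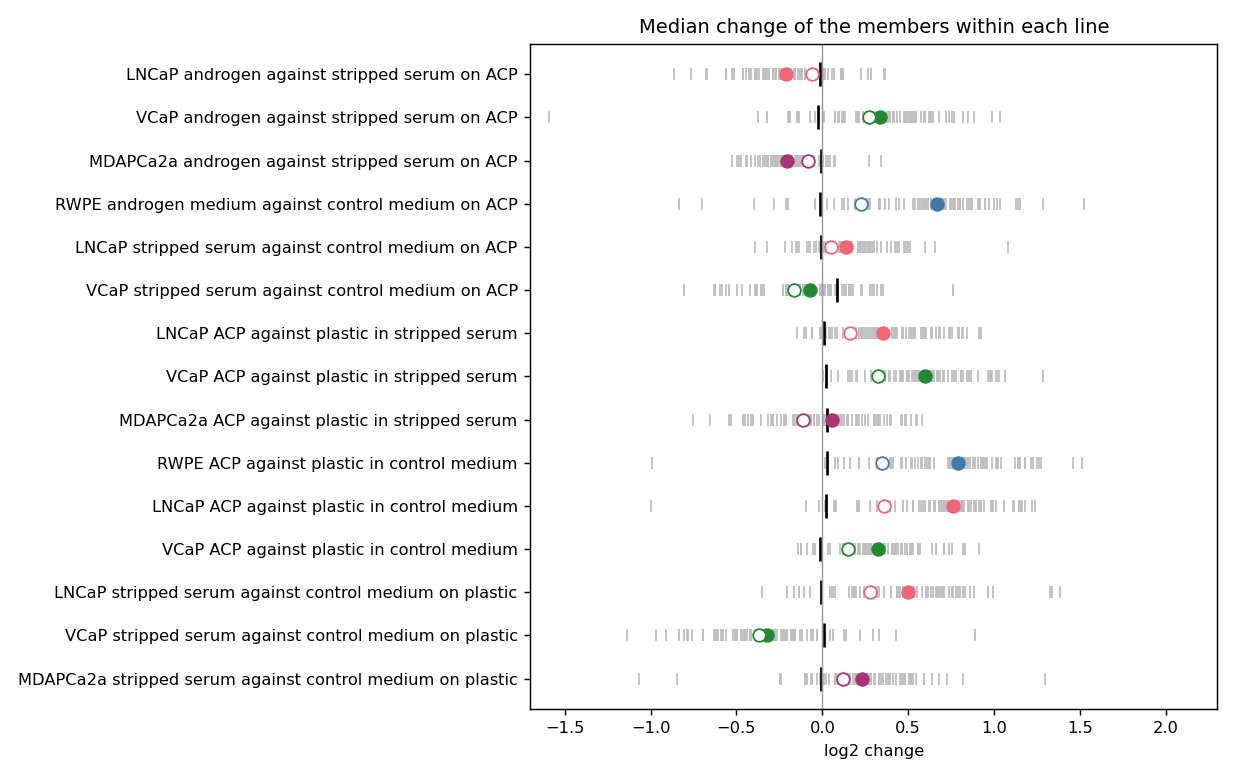
Log2 changes of the tested members (grey ticks) in the 15 comparisons within a line, with the members' median (filled circle), the same median with offsets for GC content and length (open circle) and the median of all genes (black tick); 3 NDUFA4L2 values in LNCaP lie outside the axis. The members' median is highest for ACP against plastic in control medium in RWPE (0.79) and LNCaP (0.76), where the offsets bring it to 0.35 and 0.36.

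In the comparisons with plastic in control medium, batch and condition cannot be told apart, as stated above. On ACP against plastic 27 members were higher in RWPE (4.16% of all genes called, 2.83% higher) and 59 in LNCaP (12.6% called, 6.74% higher), with 0 lower in both lines. In VCaP 0 were called by edgeR (0.0448%), with 21 at an unadjusted p under 0.05 and 0 by DESeq2. COX7B of complex IV was at 35.3 and 38.8 CPM on plastic and 100 and 107 CPM on ACP in RWPE, an edgeR difference of 1.51 (SE 0.23, adjusted p = 0.0104). NDUFB3 of complex I was at 24.5 and 28.3 CPM and 65.7 and 50 CPM in LNCaP, an edgeR difference of 1.24 (SE 0.17, adjusted p = 0.00833). In both genes the ACP libraries were the higher. In RWPE 0 were called whichever library was left out, and in LNCaP 0 without either plastic library, 10 without replicate 1 on ACP and 21 with offsets for GC content and length.

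In LNCaP on plastic 29 members were higher in stripped serum than in control medium and 0 lower, where 9.45% of all genes were called and 4.61% were higher. The liver genes summed to 15.8 to 22.2 CPM in control medium and 1.94 to 2.64 CPM in stripped serum there, and the 4 leukocyte markers to 10.4 to 10.8 and 0 to 0.154 CPM. After NDUFB4 the largest differences by edgeR were in the complex I accessory subunits NDUFB1, by 1.33 (SE 0.20, adjusted p = 0.00221), and NDUFA3, by 1.33 (SE 0.20, adjusted p = 0.00221). The count was 3 without replicate 1 of either plastic group and 6 without replicate 2 of the control group. In VCaP NDUFS7, a core subunit of complex I, changed by -1.14 (SE 0.22, adjusted p = 0.0491) by edgeR (0.89% of all genes called), and 0 members were called without either plastic control library. In MDAPCa2a ATP5D, the delta subunit of ATP synthase, changed by 1.30 (SE 0.19, adjusted p = 0.0234) by edgeR (1.58% of all genes called), and 0 were called without any of the 4 libraries. With offsets for GC content and length the MDAPCa2a split was 3 higher and 1 lower.

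Genes that work beside the respiratory chain were counted in the same fits, from lists chosen by function. The lists were not counted with offsets for GC content and length, by DESeq2 or without single libraries. Of 16 genes of the tricarboxylic acid cycle and its entry, 9 were higher and 2 lower than in RWPE on plastic in LNCaP, 10 and 3 in VCaP, and 8 and 2 in MDAPCa2a. With androgen on ACP these counts were 10 and 3, 9 and 4, and 5 and 6. Of all genes 57.4%, 62.4% and 56.7% were called on plastic in these lines and 66.9%, 67.4% and 64.0% on ACP with androgen, in either direction.

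In RWPE with androgen medium 35 of 77 mitochondrial ribosome genes rose and 0 fell, with a median of 0.62. Of 44 assembly factors of the complexes 16 rose and 0 fell, with a median of 0.51. Of 11 tested regulators of mitochondrial genes 4 rose: TFAM, the mitochondrial transcription factor, by 1.13 (SE 0.21, adjusted p = 0.017) by edgeR, TFB2M by 1.25, GABPB1 by 0.99 and TFB1M by 0.88. CYCS, cytochrome c, rose by 1.09 (SE 0.20, adjusted p = 0.017) by edgeR. The background of these counts is the 11.0% of all genes that rose. In the same comparison 0 members were called with offsets for GC content and length or without either control library. Whether the list counts hold there was not tested.

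In VCaP with androgen 7 of 16 glycolysis genes rose and 1 fell, with a median of 0.55, where 8.67% of all genes rose. By edgeR LDHA, lactate dehydrogenase, rose by 1.27 (SE 0.19, adjusted p = 0.00377) and ALDOA, an aldolase, by 1.12 (SE 0.19, adjusted p = 0.00598), and ENO2, the neuronal enolase, changed by -1.45 (SE 0.30, adjusted p = 0.0113). In LNCaP 1 of these genes rose and 0 fell. Among respiratory subunits outside the symbol pattern, CYCS (1.02, adjusted p = 0.0467), NDUFAB1 (0.87, adjusted p = 0.0232) and the ATP synthase inhibitor ATPIF1 (0.76, adjusted p = 0.0254) rose in VCaP by edgeR.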

How the data were processed

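Total RNA from 4 prostate cell lines was sequenced after poly(A) selection, per the labels' protocols. The authors deposited 1 table of raw counts per gene for 34 libraries, 26336 genes by symbol. The submitters' processing notes name STAR, HTSeq and the hg19 build, without a role or version. Genes were tested with edgeR 4.0.16 (R 4.3.3, limma 3.58.1): TMM library sizes, low counts removed by filterByExpr (minimum count 10), the quasi-likelihood F test and Benjamini-Hochberg adjustment over all genes tested, called below 0.05. Each comparison within a line used all libraries of that line, and comparisons between lines used all 34. A standard error is the log2 change divided by the square root of F. The fits were tested on simulated data with known changes. The alternatives were DESeq2 1.42.0, median-ratio size factors, no count filter, a replicate block, offsets for GC content and length (lowess, span 0.3, GENCODE release 29) and leaving out each library. Where that leaves a lone library, it is assumed to vary like the other groups.

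Members named with a test are the 5 largest rises and falls called in each comparison (mean of at least 5 CPM), core subunits and alternative isoforms; the others named were chosen after their values were seen. The members and lists were chosen with earlier results of these data known. Depth ran from 15440141 to 44779246 counts, and intervals for low reads cover counting error only. Some genes are not reported here.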

Additional observations from a re-analysis of the deposited data

Results flagged for a closer look

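For 5 members the effect of androgen on ACP differed between VCaP and LNCaP by a test of the difference itself, edgeR's interaction contrast in the fit of all lines. That is 6.17% of the members tested, under the 10.9% of all genes called in either direction. All 5 were more positive in VCaP, as were 933 of the 17323 genes tested. The count was 0 without replicate 1 of either stripped serum group. The difference, VCaP minus LNCaP on the log2 scale, was 1.31 (SE 0.37, adjusted p = 0.0231) for UQCRQ, 1.25 (SE 0.32, adjusted p = 0.0135) for NDUFA1, 1.03 (SE 0.30, adjusted p = 0.0246) for COX6C, 0.91 (SE 0.24, adjusted p = 0.0174) for UQCRFS1 and 0.80 (SE 0.26, adjusted p = 0.0495) for SDHB, all by edgeR. In VCaP the androgen effect was 0.99, 0.85, 0.63, 0.88 and 0.77, and in LNCaP -0.33, -0.42, -0.42, -0.04 and -0.06, in the same order. COX6C was at 84.4 and 116 CPM in stripped serum and 149 and 161 CPM with androgen in VCaP, and at 156 and 162 and 114 and 126 CPM in LNCaP. NDUFA1 kept its call in 6 of 8 fits without 1 library, and SDHB in 2 of 8.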

How the results depend on the processing

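Counts of called members depended on the tool and the libraries more for comparisons within a line than for those between lines. For the comparisons of a cancer line with RWPE the total over both directions stayed within 1.5 times under every alternative run, while the counts by direction did not: on ACP with androgen 17, 12 and 4 members were higher in LNCaP, VCaP and MDAPCa2a, against 30, 24 and 16 with offsets for GC content and length and 12, 6 and 1 with a replicate block. By DESeq2 the counts were 5 for androgen in LNCaP, 15 in VCaP, 9 for the difference between these effects, 2 and 2 for stripped serum on ACP in LNCaP and VCaP, 4 and 3 for stripped serum on plastic in VCaP and MDAPCa2a, 25 and 1 for the surface in stripped serum in LNCaP and MDAPCa2a, and 43 for the surface in RWPE. With no count filter they were 8 for androgen in LNCaP, 10 for the difference between androgen effects, 4 and 1 for stripped serum on ACP in LNCaP and VCaP, 3 and 4 on plastic in VCaP and MDAPCa2a, and 26 and 1 for the surface in stripped serum in LNCaP and MDAPCa2a. With offsets for GC content and length they were 7 for androgen in LNCaP, 0 for androgen medium in RWPE, 11 for the difference between androgen effects, 3 for stripped serum on ACP in LNCaP, 5 and 21 for the LNCaP surface in stripped serum and in control medium, and 0 and 4 for stripped serum on plastic in VCaP and MDAPCa2a. For the last VCaP comparison median-ratio size factors also gave 0.

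The labels state no pairing of replicates. Over 25 pairs of groups, same-numbered libraries' deviations correlated from -0.234 to 0.207, above 0.1 in 6. Such correlations cannot show whether same-numbered libraries shared a culture or a batch. With a replicate block the counts were 62 for androgen medium and 63 for the surface in RWPE, 14 for the difference between androgen effects and 0 for stripped serum on plastic in VCaP.

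Leaving out 1 library at a time gave 0 to 0 calls for androgen in LNCaP, for the surface in RWPE and for stripped serum on plastic in VCaP and in MDAPCa2a. It gave 0 to 15 for androgen in VCaP, 0 to 64 for androgen medium in RWPE, 0 to 10 for the difference between androgen effects, 0 to 10 and 0 to 55 for the LNCaP surface in stripped serum and in control medium, 3 to 34 for stripped serum on plastic in LNCaP, and 24 to 43 for MDAPCa2a against VCaP. The single VCaP library on plastic in stripped serum could not be left out. For named members 586 of the values without 1 library kept direction and call, 211 lost the call, and NDUFA4L2 in LNCaP against RWPE on ACP with androgen ran from -0.55 to 3.91. SDHC in MDAPCa2a against RWPE on ACP with androgen was 0.0447 with offsets for GC content and length. Apart from these, and from changes that the construction itself makes (fewer libraries, other genes tested), the cause was not tested.

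Most groups hold 2 libraries, so that few degrees of freedom remain, and a member that did not pass is not shown to be unchanged. COX6B2 and COX7B2 rest on few reads outside the line where they are highest.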
